A study of Mus musculus with 9 samples.

Results

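The 8 genes described here encode enzymes that make or interconvert asparagine, aspartate, alanine, proline, glutamine and arginine: *Asns*, *Got1*, *Got2*, *Gpt2*, *Aldh18a1*, *Pycr1*, *Glul* and *Ass1*. They were chosen by symbol for their place in these pathways from the 26858 genes of the deposited table, and all 8 were among the 14990 genes with enough reads to be tested. The cells were SIX2 progenitors, the cap mesenchyme cells from which nephrons form, sorted for eGFP from mouse kidneys at age E18.5. Control (n = 4 libraries) and mutant (n = 5 libraries) cells both carried a bacterial artificial chromosome transgene in which the *Six2* promoter drives Cre fused to eGFP, so the gene that marks the cells also deletes the floxed *Uqcrq* (*Qpc*) gene, a subunit of mitochondrial complex III. Controls were heterozygous *Six2-Qpc*+/- and had therefore lost 1 copy of *Uqcrq* themselves, whereas *Six2-Qpc*-/- mutants had both copies floxed. The labels do not say whether a library came from 1 embryo or from a pool, and p-values measure only the spread between these libraries. The question was whether the genotype changed the expression of amino acid genes in SIX2 progenitors.

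Aspartate and glutamate are made from intermediates of the tricarboxylic acid cycle by aminotransferases, which move an amino group from one carbon skeleton to another. GOT2 in the mitochondrion and GOT1 in the cytosol interconvert aspartate and glutamate and, with malate dehydrogenases and inner membrane carriers, form the malate-aspartate shuttle that carries reducing equivalents between the compartments. Asparagine synthetase (ASNS) uses aspartate and glutamine, glutamine synthetase (GLUL) makes glutamine from glutamate, and ALDH18A1 and PYCR1 catalyse the first and last steps from glutamate to proline. *Asns* is a textbook target of ATF4, the transcription factor of the amino acid response, which binds C/EBP-ATF elements in promoters.

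The promoters of the genes were searched in the RefSeq windows of build GRCm38.p6, which run from 250 bases before to 50 bases after the start site, for TGATGNAA, the core of the C/EBP-ATF element, and for the E-box CACGTG, on both strands. All 8 genes had a window. TGATGNAA was present in 3 of them, against 3.97% of all 32851 windows and 2.19% of the 13463 windows of tested genes, and CACGTG in 2 of them (*Aldh18a1* and *Ass1*), against 7.15% and 9.69%. The matches of the 3 genes and the E-box of *Aldh18a1* are shown because these genes differed between genotypes in the reads. *Gpt2* and *Glul*, which also rose in mutant cells, held neither motif in their windows. *Ass1*, whose E-box is not shown, was not called. Whether a motif and a rise go together was not tested. Each stretch reads 5′ to 3′ along the gene and the capitals mark the match. In *Got1* the element lies on the opposite strand. Among the genes shown, the RefSeq starts of *Asns* and *Pycr1* lie inside the longer gene spans of the table. The match in *Asns* begins 23 bases before the RefSeq start, in *Got1* 102 bases, in *Pycr1* 103 bases and in *Aldh18a1* 59 bases before it.
*Asns*, chr6:7693214-7693243, minus strand: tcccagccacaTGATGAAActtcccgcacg
*Got1*, chr19:43524674-43524733, minus strand: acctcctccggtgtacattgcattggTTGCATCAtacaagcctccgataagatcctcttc
*Pycr1*, chr11:120643818-120643877, minus strand: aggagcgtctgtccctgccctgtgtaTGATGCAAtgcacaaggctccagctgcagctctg
*Aldh18a1*, chr19:40588491-40588548, minus strand: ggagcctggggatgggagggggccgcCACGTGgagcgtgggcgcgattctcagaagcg
A match is a string of letters and was not tested as a binding site.

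Library totals lay between 21040536 and 23986458 counts. Levels are given as counts per 1000000 of the normalized library size (CPM), and a gene was called when its adjusted p-value in edgeR's quasi-likelihood test (Benjamini-Hochberg over all genes tested) was under 0.05. The targeted gene *Uqcrq* fell from 94.1 ± 13.3 CPM (SD, n = 4) to 21.3 ± 4.45 CPM (n = 5) without overlap. Of 12 tested nephron progenitor markers none was called and their summed level was 2430 to 2926 CPM in control and 2439 to 2869 CPM in mutant libraries. For the counts of markers that follow, 7.82% of all tested genes rose and 7.02% fell. Among markers of other cells, 6 of 11 tested stromal genes rose. The summed level of the stromal markers was 197 to 332 CPM in control and 396 to 975 CPM in mutant libraries, highest in mutant 75. The stromal marker *Tbx18* was at most at 1.27 CPM, while the collagen gene *Col1a1* reached at most 25.8 CPM in control and 127 CPM in mutant libraries. Of 8 tested committed progenitor markers, 3 fell (summed level 337 to 668 CPM in control, 252 to 361 CPM in mutant libraries). Myeloid markers summed to 2.34 to 11.1 CPM in control and 8.40 to 114 CPM in mutant libraries, highest in mutant 77, with 1 of 6 tested genes higher. Of the tested endothelial markers, 1 of 4 rose, at sums of at most 9.33 CPM. None of 2 proximal tubule, 4 podocyte, 4 ureteric bud and 1 erythroid markers tested was called. Ureteric bud markers nevertheless summed to 46.5 to 67.0 CPM in control and 28.4 to 68.6 CPM in mutant libraries. Podocyte markers summed to 28.8 to 43.1 CPM in control and 24.6 to 50.2 CPM in mutant libraries. The sums were at most 15.6 CPM for proximal tubule and 2.66 CPM for erythroid markers. In these bulk samples more cells of a type and more RNA per cell cannot be told apart, and the part of these markers in the results below was not tested.

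Of the 8 genes, 6 rose in mutant cells (*Asns*, *Aldh18a1*, *Glul*, *Pycr1*, *Gpt2* and *Got1*), none fell, and *Got2* and *Ass1* did not pass the test. By comparison, 14.8% of all tested genes were called, 7.82% higher and 7.02% lower in mutant cells. Each of the 6 genes also had every mutant library above every control library, which held for 7.5% of all tested genes, while the reverse held for 7.73% of genes and for none of the 8. The median log2 fold change of the 8 genes was 0.81, beside a median of -0.01 over all tested genes. The 6 genes that rose are among the amino acid genes that the study displayed from these same libraries, so their direction is not independent evidence; *Got2* and *Ass1* are not. All 6 stayed called when each library was left out in turn and under the 8 other settings tried.

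**Figure D1:**
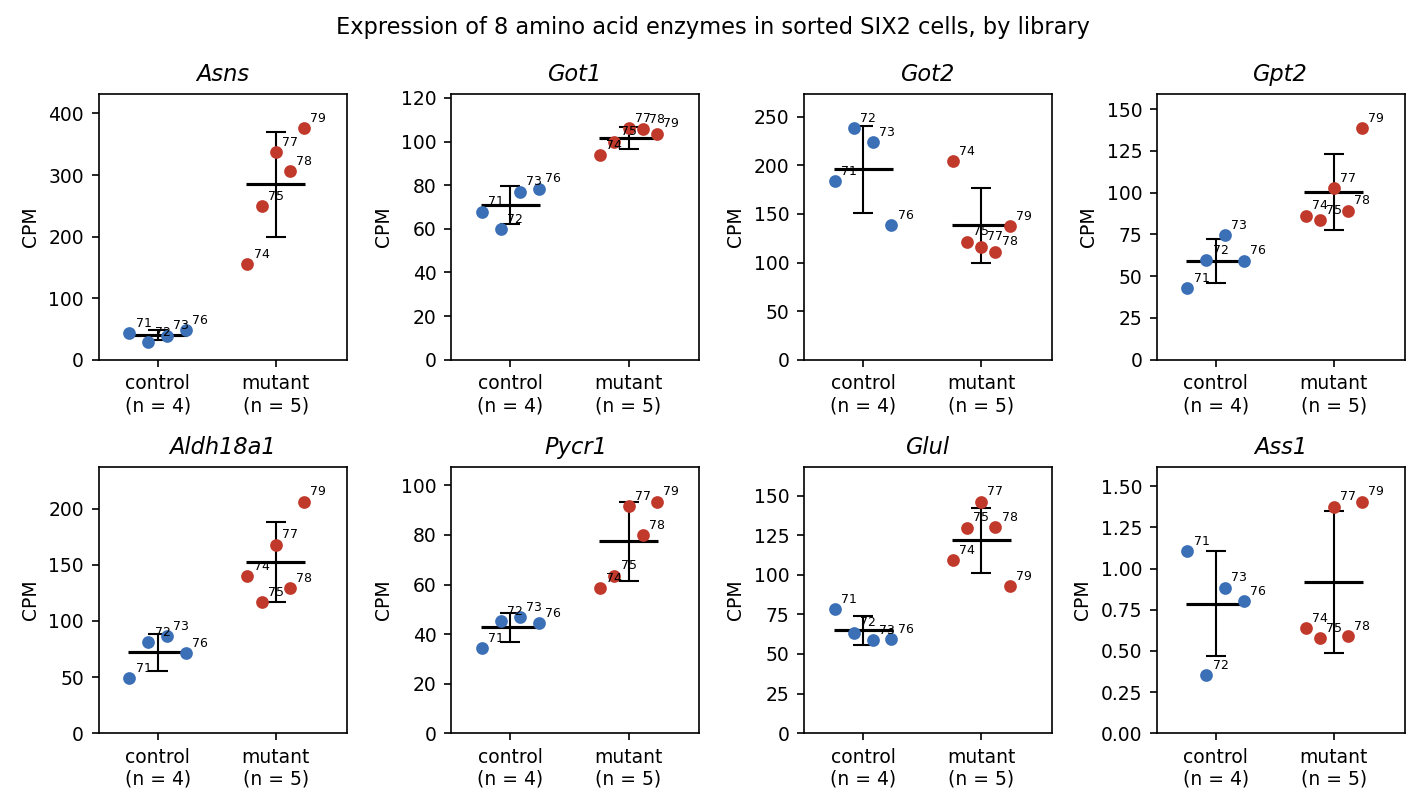
Expression of each enzyme gene in the 4 control (blue) and 5 mutant (red) libraries, in CPM on a linear axis that starts at 0. Each point is a library with its replicate number, the horizontal line is the mean and the bar the SD. The groups do not overlap for 6 genes, whereas mutant 74 lies among the controls for *Got2* and all *Ass1* values are under 1.5 CPM.

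*Asns* (chr6:7675169-7693254, GRCm38, minus strand), whose enzyme makes asparagine, showed the largest change of the 8 genes. Control libraries 71, 72, 73 and 76 held 42.8, 28.2, 39.0 and 47.6 CPM. Mutant libraries 74, 75, 77, 78 and 79 held 155, 249.9, 337, 306 and 376 CPM. The lowest mutant library, 74, was still above the highest control library, 76. The mean rose from 39.4 ± 8.23 to 285 ± 85.8 CPM (SD, n = 4 and 5), a fitted fold change of 7.23 (log2 fold change 2.85, SE 0.24, adjusted p = 6.9e-05). Ordered by p-value *Asns* was number 4 of the 14990 genes. The spread among mutant libraries was wide, from 3644 reads in mutant 74 to 8288 reads in mutant 79.

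The aspartate aminotransferases, which share a reaction in different compartments, did not move together. *Got1* (chr19:43499752-43524605, minus strand) was at 67.9, 59.8, 77.1 and 78.4 CPM in control and at 93.9, 99.98, 106, 106 and 104 CPM in mutant libraries. The mutant libraries of this gene lay close to each other, and the groups did not overlap (log2 fold change 0.52, SE 0.11, adjusted p = 0.0097). *Got2* (chr8:95864134-95888547, minus strand) was at 184, 238, 224 and 138 CPM in control and at 205, 122, 116, 111 and 138 CPM in mutant libraries. In 4 of the 5 mutant libraries *Got2* was below every control library, and mutant 74 was as high as the controls. The log2 fold change of *Got2* was -0.50 (SE 0.19, 95% interval -0.92 to -0.08) and did not pass the test over all genes (adjusted p = 0.0951). Without mutant 74 it was -0.69 (adjusted p = 0.0091) and without control 76 it was -0.63 (adjusted p = 0.0409), both past the threshold. With 1 surrogate variable in the fit it was -0.25 (adjusted p = 0.115). In the annotation, 434 exonic bases of *Got2* lie under an unconfirmed transcript on the other strand, *Gm45760*, whose reads could not be told apart in libraries without strand.

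The ratio of the 2 genes inside each library, which does not depend on how libraries are scaled, moved towards the cytosolic enzyme. Per base of gene length *Got1* was at 0.451 of the *Got2* level in control libraries (0.308 to 0.696) and at 0.929 in mutant libraries (0.564 to 1.17). On the log2 scale of read counts the ratio rose by 1.04, with an overlap through mutant 74 (2-sided exact permutation test over all ways of assigning 9 libraries to groups of 4 and 5, p = 0.0238; adjusted over the 9 ratios compared, 0.0306). This adjusted p missed the threshold without control 72 (difference 0.86, adjusted p = 0.0689), mutant 75 (1.01, 0.0735), mutant 77 (0.98, 0.0735), mutant 78 (0.96, 0.0735) or mutant 79 (1.04, 0.0643). The lowest p that the permutation test can give is higher with fewer libraries. Without mutant 75, even the ratio of *Gpt2* to *Gpt* described next, which had no overlap, had a permutation adjusted p of 0.0429.

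*Gpt2* (chr8:85492576-85527560, plus strand) encodes the mitochondrial alanine aminotransferase, which makes alanine and 2-oxoglutarate from pyruvate and glutamate. Its control libraries held 42.8, 59.7, 74.6 and 59.3 CPM and its mutant libraries 86.3, 83.8, 103, 89.3 and 139 CPM. The groups did not overlap, and mutant 79 stood above the other mutants (log2 fold change 0.76, SE 0.18, adjusted p = 0.0155). The cytosolic paralog *Gpt* was scarce, at 4.66 ± 0.78 CPM in control and 3.57 ± 1.41 CPM in mutant libraries, and was not called (log2 fold change -0.39, adjusted p = 0.429). The log2 ratio of *Gpt2* to *Gpt* reads was 3.08 to 4.06 in control and 4.34 to 5.72 in mutant libraries, a difference of 1.24 (exact permutation p = 0.00794, the smallest that this design can give; adjusted p = 0.0119). Without control 72 the difference was 1.17 and its adjusted p 0.0536. Since *Gpt2* alone had no overlap and *Gpt* was fitted lower, these p-values are not evidence separate from the rise of *Gpt2*.

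Both proline synthesis genes rose. *Aldh18a1* (chr19:40550257-40588463, minus strand) encodes the enzyme that turns glutamate into the precursor of proline and ornithine. It was at 49.0, 81.4, 86.5 and 71.6 CPM in control and at 140.3, 117, 168, 129 and 206 CPM in mutant libraries, so that the lowest mutant library exceeded the highest control library (log2 fold change 1.08, SE 0.19, adjusted p = 0.0042). *Pycr1* (chr11:120635712-120643769, minus strand) encodes a mitochondrial reductase for the last step. Its values were 34.2, 45.1, 46.9 and 44.4 CPM in control and 58.6, 63.6, 91.6, 79.8 and 93.4 CPM in mutant libraries (log2 fold change 0.86, SE 0.16, adjusted p = 0.00544). Mutants 74 and 75 were the lowest of the mutants for *Pycr1*, again with no overlap.

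A cytosolic reductase gene of the same step, *Pycrl*, did not follow *Pycr1*. It was at 139 ± 12.6 CPM in control and 121 ± 9.96 CPM in mutant libraries (log2 fold change -0.20, adjusted p = 0.219). Relative to *Pycrl*, *Pycr1* reads rose by 1.05 on the log2 scale, from between -2.19 and -1.49 in control to between -1.12 and -0.31 in mutant libraries (exact permutation p = 0.00794, adjusted p = 0.0119). Since *Pycr1* alone had no overlap and *Pycrl* was fitted lower, this p-value is not evidence separate from the rise of *Pycr1*. Per base of gene length *Pycr1* stood at 0.142 of *Pycrl* in control and at 0.293 in mutant libraries, so it remained the less abundant transcript.

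Genes of the opposite direction, from proline back to glutamate, were at lower or indistinct levels. *Aldh4a1*, the second enzyme of proline breakdown, fell from 17.3 ± 2.44 to 10.9 ± 3.13 CPM (log2 fold change -0.67, SE 0.21, adjusted p = 0.047), with 4 of 5 mutant libraries below every control library. *Prodh*, the first enzyme, was at 28.5 ± 2.56 and 22.1 ± 5.37 CPM and was not called (log2 fold change -0.37, adjusted p = 0.173). The log2 ratio of *Aldh18a1* to *Aldh4a1* was 1.72 to 2.45 in control and 3.68 to 4.07 in mutant libraries, a difference of 1.78, and that of *Aldh18a1* to *Prodh* differed by 1.47 (both exact permutation p = 0.00794, adjusted p = 0.0119, no overlap). Since *Aldh18a1* alone had no overlap and both partners were fitted lower, these p-values are not evidence separate from its own rise. Among the mutants the ratio to *Aldh4a1* had an SD of 0.17, and the ratio to *Prodh* was highest in mutant 79 (3.35).

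*Glul* (chr1:153899944-153909723, plus strand), which encodes glutamine synthetase, was at 78.2, 63.4, 58.8 and 59.2 CPM in control and at 109, 129.7, 146, 130.3 and 93.0 CPM in mutant libraries. The groups did not overlap, with mutant 79 the lowest of the mutants (log2 fold change 0.91, SE 0.15, adjusted p = 0.00255). In the annotation 116 exonic bases of *Glul* are shared with *Teddm2* on the opposite strand.

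*Ass1* (chr2:31470207-31520672, plus strand), which joins citrulline and aspartate on the way to arginine, was barely detected. Control libraries held 26, 9, 21 and 19 reads and mutant libraries 15, 13, 27, 12 and 31 reads, or 0.35 to 1.41 CPM in all. The log2 fold change was 0.22 (SE 0.47, 95% interval -0.80 to 1.24, adjusted p = 0.788), so at this depth a fall of up to 0.80 or a rise of up to 1.24 on the log2 scale could not be told from no change. *Asl*, the next enzyme, was well detected and fell from 77.97 ± 4.05 to 58.3 ± 3.20 CPM without overlap (log2 fold change -0.42, SE 0.10, adjusted p = 0.017). The log2 ratio of *Ass1* to *Asl* differed by 0.63 (exact permutation p = 0.222, adjusted p = 0.222).

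**Figure D2:**
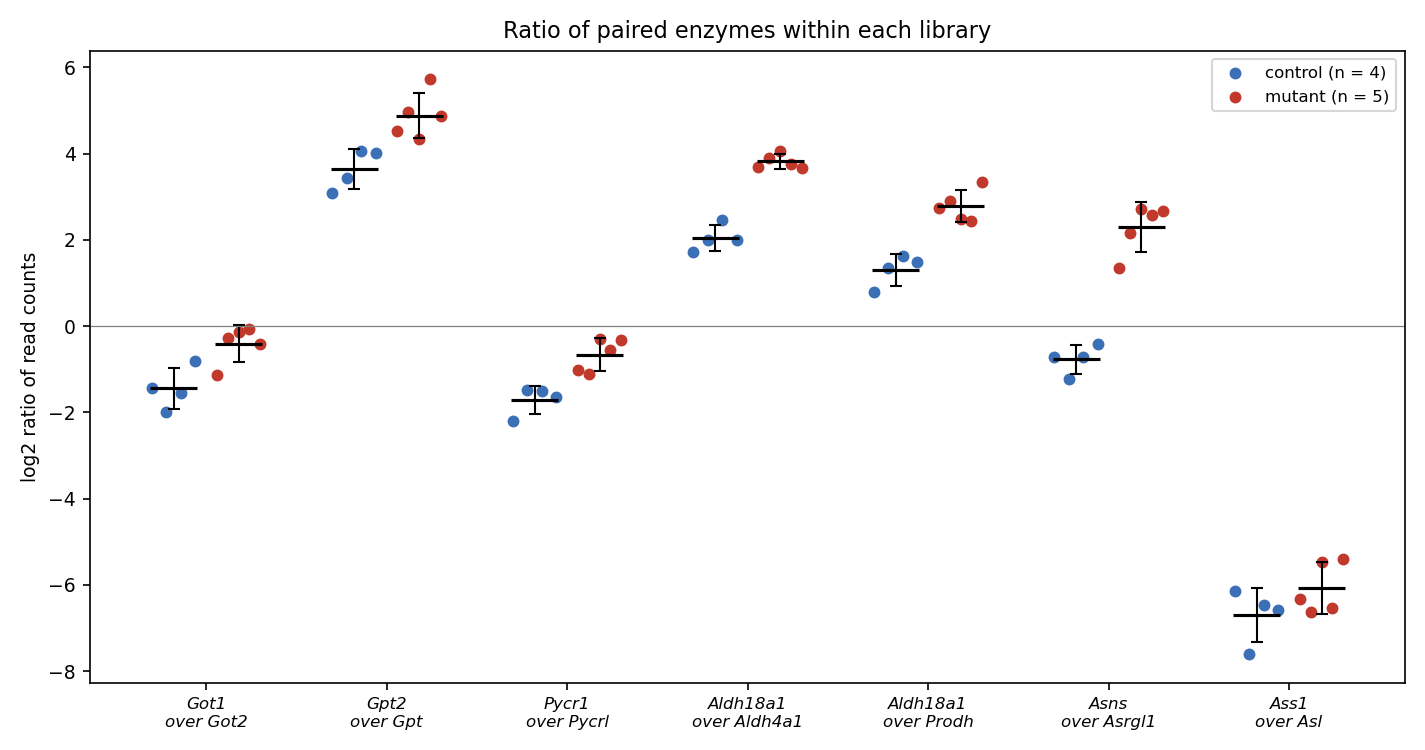
Log2 ratio of the read counts (each plus 0.5) of 2 enzymes inside each library, for 7 pairs. Points are libraries (blue, 4 control; red, 5 mutant), lines are means and bars SDs. The groups are apart for 5 pairs and overlap for *Got1* over *Got2* and *Ass1* over *Asl*.

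No tested gene of asparagine breakdown was called. *Asrgl1*, an asparaginase, was at 66.1 ± 3.10 CPM in control and 55.7 ± 4.39 CPM in mutant libraries, and although no libraries overlapped it was not called (log2 fold change -0.25, adjusted p = 0.133). The log2 ratio of *Asns* to *Asrgl1* reads went from between -1.22 and -0.42 to between 1.35 and 2.71, a difference of 3.07. Since neither gene had overlapping groups and they differed in opposite directions, the separation of this ratio was fixed by the values of the genes themselves and is given without a test. Per base of gene length *Asns* stood at 1.22 times the *Asrgl1* level in control libraries (0.893 to 1.56) and at 10.2 times in mutant libraries (5.32 to 13.7).

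When levels were set side by side per kilobase of gene length, the order of the genes differed between the genotypes. In control libraries *Got2* led with a median of 80.6 CPM per kilobase (54.7 to 94.2), followed by *Got1* with 35.2 (29.0 to 38.1), and neither overlapped its neighbour. *Glul*, *Aldh18a1*, *Asns* and *Gpt2* came next with medians of 21.96, 21.7, 20.3 and 16.3 and ranges that overlapped from one to the next, then *Pycr1* with 15.4. *Ass1* was far below at 0.50. In mutant libraries *Asns* led with a median of 152 CPM per kilobase (77.03 to 187) and was above *Got2* in 4 of 5 libraries. *Got1* (50.4), *Got2* (48.1), *Glul* (46.5) and *Aldh18a1* (39.8) had overlapping ranges, as did *Pycr1* (27.4) and *Gpt2* (24.5). *Ass1* remained last at 0.38.

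**Figure D3:**
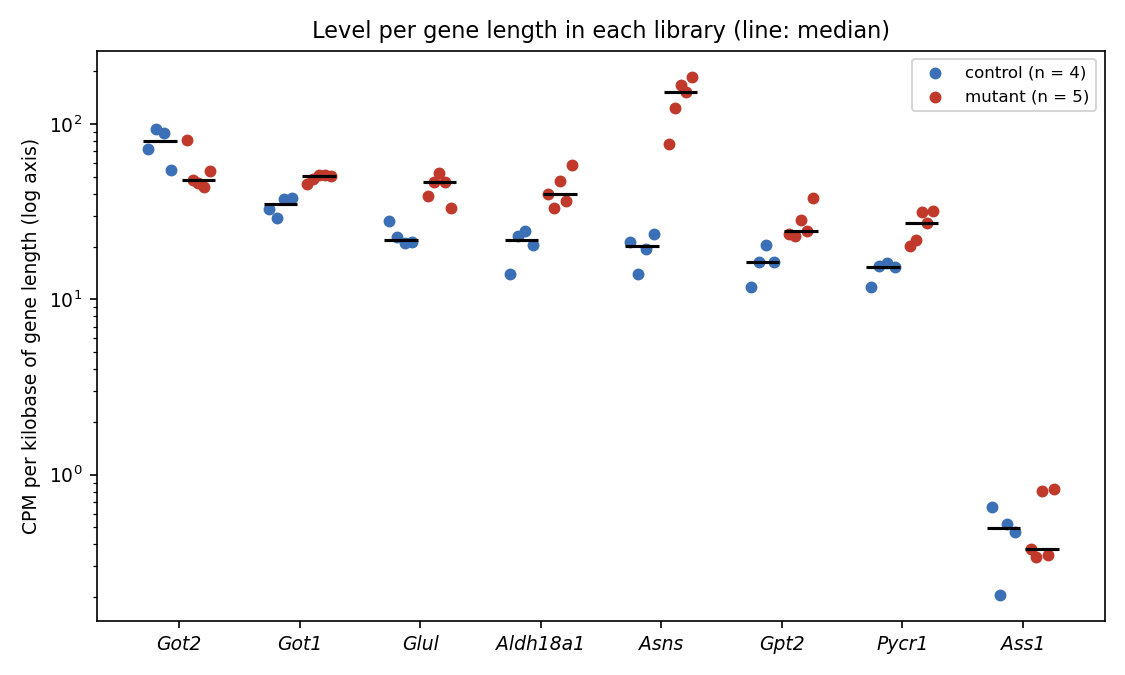
Level of each gene per kilobase of gene length (CPM per kilobase, log axis), ordered by the control mean. Points are libraries (blue, 4 control; red, 5 mutant) and lines are medians. *Got2* is the highest control gene and *Asns* the highest mutant gene, while *Ass1* stays under 1 in every library.

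Neighbouring reactions were examined in 8 lists of 57 genes, of which 45 were tested. In these lists 5 genes rose, 5 fell and 35 did not pass, so that 22.2% were called beside 14.8% of all tested genes, and the median log2 fold change was -0.09. The rises were of *Bcat1*, *Psat1*, *Odc1*, *Gfpt1* and *Adss*, and the falls of *Ccbl1*, *Aldh4a1*, *Oat*, *Asl* and *Slc25a11*. Of these 10 calls, 4 (*Psat1*, *Bcat1*, *Odc1* and *Ccbl1*) held without each library in turn and 6 were lost without at least 1 library. Left-out libraries changed the number that rose to 3 without mutant 77 or mutant 78 and to 8 without mutant 74, and the number that fell to 1 without control 73, to 2 without control 71, mutant 77 or mutant 78, and to 3 without control 72, control 76 or mutant 79. *Psat1*, *Bcat1*, *Aldh4a1* and *Asl* are also among the genes the study displayed from these libraries.

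The largest called changes among the neighbours were in other aminotransferases. Of 8 tested genes there 2 rose and 1 fell, where 7.82% and 7.02% of all tested genes did. *Psat1*, which makes phosphoserine, held 65.7 to 85.8 CPM in control and 149 to 300 CPM in mutant libraries (log2 fold change 1.69, SE 0.19, adjusted p = 3.6e-04). *Bcat1*, the cytosolic aminotransferase of branched-chain amino acids, held 2.57 to 7.71 and 19.3 to 48.9 CPM (log2 fold change 2.81, SE 0.33, adjusted p = 5.0e-04). For both genes mutant 74 was the lowest and mutant 79 the highest of the mutants, as for *Asns*. *Ccbl1*, a kynurenine aminotransferase, fell from 15.5 ± 0.61 to 9.38 ± 1.83 CPM (log2 fold change -0.72, SE 0.18, adjusted p = 0.0177).

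The shuttle list held 6 genes, among them the mitochondrial glutamate carrier *Slc25a22*, which is not part of the malate-aspartate shuttle. Of these 6 genes 1 fell and none rose, where 7.02% and 7.82% of all tested genes did. *Slc25a11*, the carrier that exchanges malate for 2-oxoglutarate, fell from 239 ± 17.7 to 182 ± 17.4 CPM with no overlap (log2 fold change -0.39, SE 0.11, adjusted p = 0.0276), and the malate dehydrogenases and aspartate-glutamate carriers were among the 5 that did not pass. The nucleotide list held 5 genes of steps that consume aspartate or, for *Adsl*, follow such a step. Of these *Adss*, which commits inosine monophosphate to adenylate, rose from 113 ± 7.91 to 146 ± 17.2 CPM (log2 fold change 0.37, SE 0.12, adjusted p = 0.0454). *Cad* (log2 fold change -0.22, adjusted p = 0.45), *Adsl* (-0.16, 0.349), *Paics* (0.11, 0.589) and *Adssl1* (-0.51, 0.208) did not pass.

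Over all tested genes 7.02% fell and 7.82% rose, and in the proline and ornithine list 2 of 5 tested genes fell and none rose. Beside *Aldh4a1* these included *Oat*, which interconverts ornithine and the proline precursor, at 166 ± 11.8 CPM in control and 121 ± 18.1 CPM in mutant libraries (log2 fold change -0.45, SE 0.12, adjusted p = 0.0295). *Pepd*, a dipeptidase that frees proline, was at 209 ± 11.5 and 189 ± 13.3 CPM and was not called (log2 fold change -0.15, adjusted p = 0.338). In the arginine and urea cycle list 1 of 7 tested genes rose and 1, *Asl*, fell, where 7.82% and 7.02% of all tested genes did. The rise was of *Odc1*, the first enzyme of polyamine synthesis, from 252 ± 20.2 to 404 ± 91.6 CPM (log2 fold change 0.68, SE 0.16, adjusted p = 0.0139).

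Of 8 tested glutamine amidotransferases, enzymes that take nitrogen from glutamine, 1 rose, where 7.82% of all tested genes did. It was *Gfpt1*, the entry enzyme of hexosamine synthesis, from 24.8 ± 2.36 to 33.9 ± 3.22 CPM (log2 fold change 0.45, SE 0.13, adjusted p = 0.0367). Neither of the 2 genes tested for glutamate and glutamine breakdown was called. *Glud1*, glutamate dehydrogenase, was at 131 ± 21.4 and 123 ± 15.0 CPM (adjusted p = 0.691), and *Gls2* at 1.29 ± 0.52 and 0.65 ± 0.51 CPM (adjusted p = 0.232). None of the 4 tested genes of asparagine and aspartate turnover was called; beside *Asrgl1* these were *Aga* (log2 fold change -0.11, adjusted p = 0.71), *Ddo* (0.89, 0.517) and *Got1l1* (-0.02, 0.991).

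Over all lists 8 of the 45 tested genes had every mutant library above every control library and 6 had the reverse, called or not, where 7.5% and 7.73% of all tested genes did. The uncalled ones, named after their values were seen, were *Arg2* (log2 fold change 1.24, adjusted p = 0.0714), *Nos1* (0.88, 0.0544) and *Ctps* (0.50, 0.0515) above, and *Asrgl1* and *Pfas* (-0.19, 0.33) below.

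**Figure D4:**
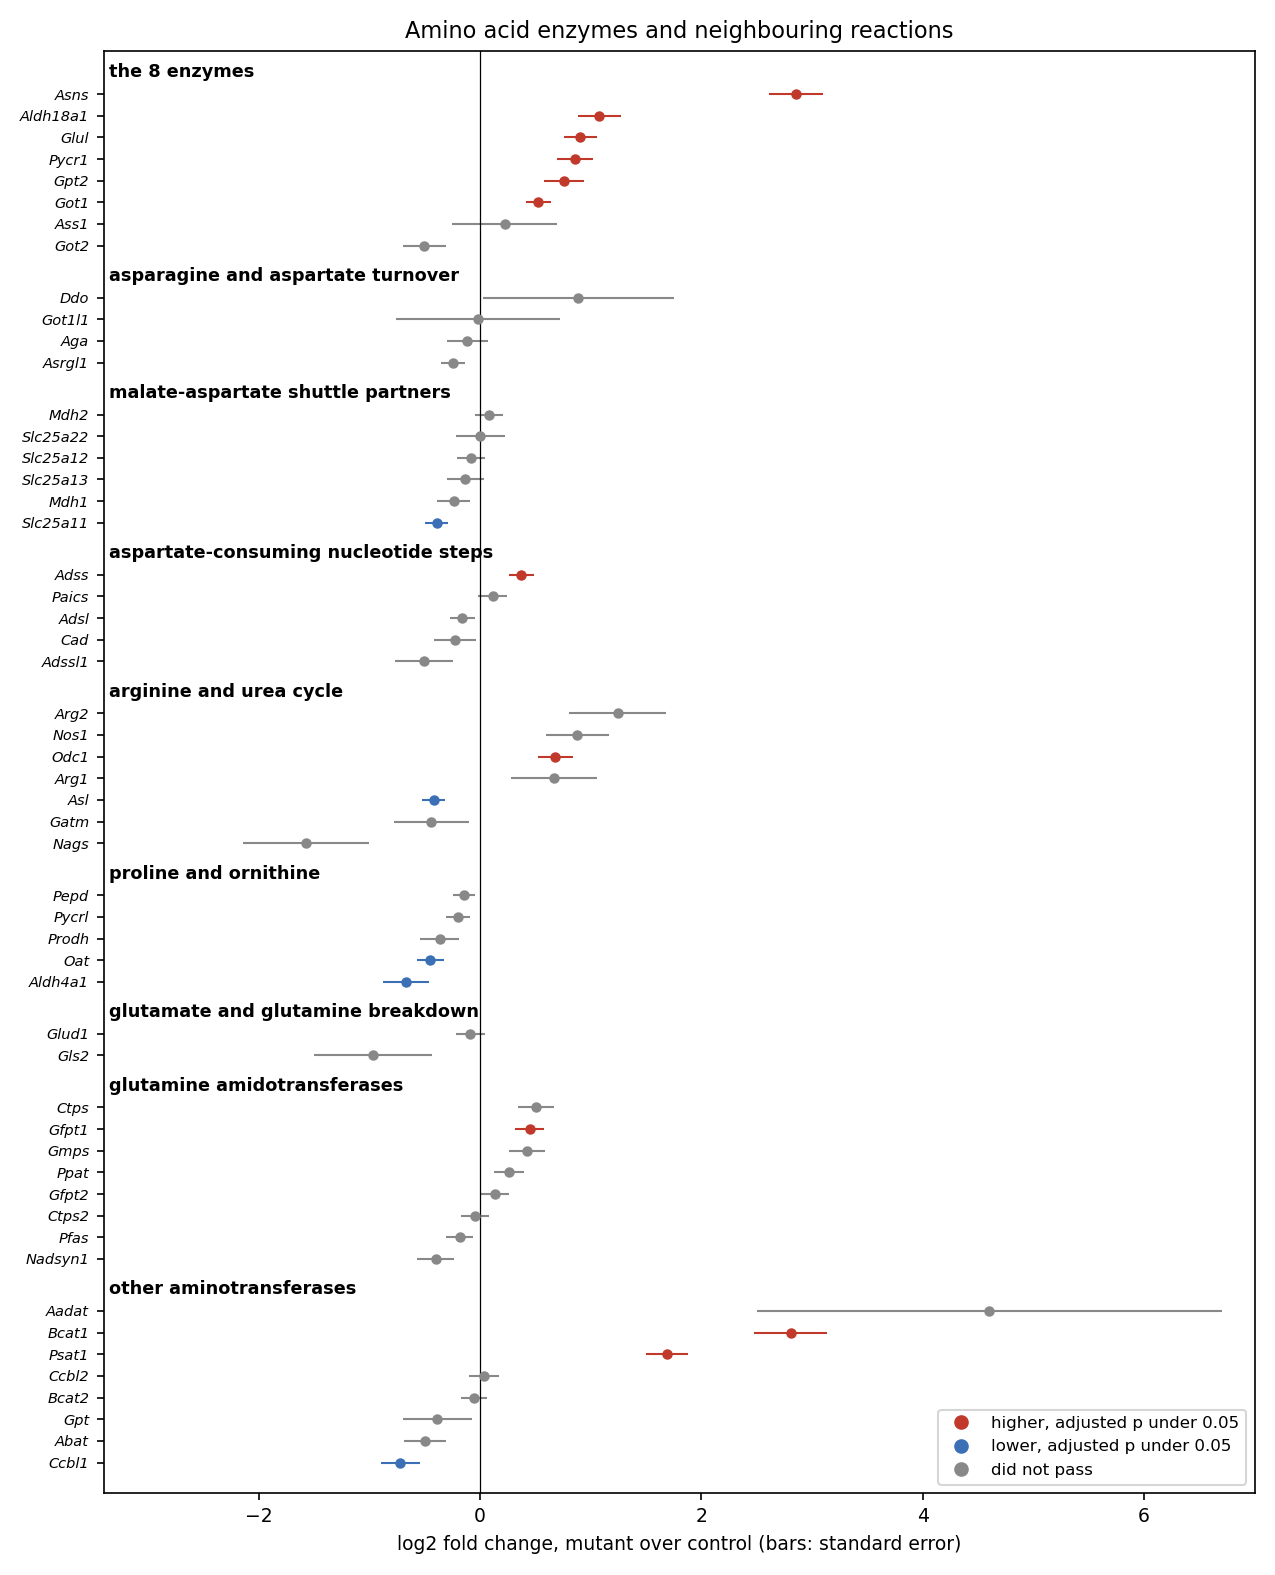
Log2 fold change, mutant over control, of the 8 enzymes and of the 45 tested genes of 8 neighbouring lists, with bars of 1 standard error; red and blue mark genes called higher and lower, grey those that did not pass. *Asns*, *Bcat1* and *Psat1* are the called genes furthest to the right, and the wide bar of *Aadat* rests on mutant 77.

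Gene by gene, the libraries did not rank the same way. For likeness to *Asns*, Pearson's r of log2 CPM was computed for the 9348 genes whose mean reached 10 CPM, as a description over 9 libraries that share the genotype difference. The closest genes were *Mthfd2* (0.994), a mitochondrial folate enzyme, *Psat1* (0.993), *Siah2* (0.991), the amino acid transporter *Slc7a3* (0.988) and *Metap1* (0.987). Among the other enzymes *Got1* came nearest (0.958, number 42), followed by *Pycr1* (0.920), *Glul* (0.885), *Aldh18a1* (0.863) and *Gpt2* (0.835), and *Got2* ran the other way (-0.771). After each genotype was centred on its own mean, the closest were *Psph* (0.982), which completes serine synthesis, *Odf2l* (0.978), *Atp6v0e2* (0.975), *Psat1* (0.957) and *Ankrd32* (0.943). Centred in this way, r with *Asns* was 0.708 for *Got1*, 0.618 for *Pycr1*, 0.357 for *Gpt2*, 0.182 for *Aldh18a1*, 0.064 for *Glul* and -0.792 for *Got2*.

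Reads of Y-linked genes were high in 2 of 4 control libraries (72 and 73) and 1 of 5 mutant libraries (79), at 263 to 328 CPM in sum, and at most 0.18 CPM in the other 6 libraries. *Aldh18a1*, *Gpt2* and *Pycr1* were each highest within each genotype in the libraries with Y-linked reads, although control 72 and control 76 lay close together for *Gpt2* (59.7 and 59.3 CPM) and *Pycr1* (45.1 and 44.4 CPM). Within those 3 libraries the log2 ratio of mutant to control mean CPM of *Aldh18a1* was 1.30, and within the other 6 it was 1.20. For *Gpt2* the corresponding values were 1.05 and 0.83, for *Pycr1* 1.02 and 0.90, for *Asns* 3.48 and 2.54, for *Got1* 0.60 and 0.47 and for *Glul* 0.61 and 0.91. The sign of these values follows from the lack of overlap between the groups, and only their sizes can be compared; the first set holds 1 mutant library. With Y-linked expression as a covariate all 6 remained called (adjusted p from 2.5e-04 to 0.0157). For *Got2* the values were -0.75 and -0.22, and with the covariate its log2 fold change was -0.40 (adjusted p = 0.209).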

How the data were processed

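Cells were sorted by FACS, and per the labels cDNA was amplified directly from them with a low-input kit, poly(A) selected and sequenced without strand information. The submitters' processing notes list STAR, DESeq2 and build mm10 without versions; the counting tool is not given in the sources used here. The authors deposited 1 table with raw read counts per gene and library, which were the values used here. The authors also gave FPKM values per library, and a column of normalized signal (mean normalized counts) per genotype; neither was used. The table's log2 fold change and p-value columns hold the authors' own comparison and were not used. Levels per kilobase used the deposited gene length. Gene spans in the table match GENCODE M21 (GRCm38) for all 8 genes; genes were matched by symbol, since the table's identifier of *Ass1* differs from that of GENCODE.

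The analysis of the counts used edgeR 4.0.16 in R 4.3.3 (filterByExpr on genotype, 14990 of 26858 genes; TMM; robust quasi-likelihood test; Benjamini-Hochberg, threshold 0.05), 4 control against 5 mutant libraries with no covariate. The script was tested on simulated data. The standard error was taken as the absolute log2 fold change over the root of the F statistic, and 95% intervals used the moderated degrees of freedom of the test. Ratios were compared on log2 (counts + 0.5) by 2-sided exact permutation tests over libraries, adjusted over 9 ratios, of which 2 are not reported here; 2 genes were likewise left out of the lists. With totals of 21040536 to 23986458 counts, the spread between libraries sets the precision except for genes with few reads. The alternatives tried were each library left out, scaling by upper quartile or by RLE, a count filter dropped to 1 read or raised to 10 reads in all libraries, DESeq2 1.42.0, voom weighted by sample quality (limma 3.58.1), a Y-linked covariate, a surrogate variable from sva 3.50.0, and CPM + 1 in the ratios. The genes, lists and tests were chosen with earlier results of these data known. Named genes were the 8 enzymes, partners in ratios, called genes of the lists, all tested genes of lists with 5 or fewer, the 5 genes most like *Asns*, *Uqcrq* and markers.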

Additional observations from a re-analysis of the deposited data

Results flagged for a closer look

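In groups of 4 or 5 libraries, a library was marked when its gap to the nearest other library was a large part of the group's range by Dixon's criterion. Of 52 groups tested 2 were marked, and chance marks about 1 in 20, or 2.6. *Got2* was at 205 CPM in mutant 74, above the next mutant at 138 CPM. Mutant 74 also stood apart over all tested genes. On their main axis of variation (first principal component of log2 CPM) it was at 8.38. The other mutants were at 28.3 to 50.6 and the controls at -54.2 to -21.4. The part of this in the *Got2* value was not tested. *Aadat*, a mitochondrial aminotransferase, was at 36.0 CPM in mutant 77 and at most 0.974 CPM in the other mutants, and its log2 fold change of 4.60 (edgeR adjusted p = 0.178) rests on that library.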

How the results depend on the processing

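The 6 rises kept their direction and passed the threshold under all 8 other settings and without each library in turn. The largest adjusted p of these was 0.0476, for *Gpt2*. Limma-voom called 4868 genes in all, against 2225, and 9 higher and 10 lower in the neighbouring lists, against 5 and 5; DESeq2 and the filter of 10 counts each called 8 higher. Leaving out 1 library gave 1046 to 3136 genes called. The number was 1354 without control 71, 1272 without control 72, 1046 without control 73, 1336 without mutant 78 and 3136 without mutant 74. In the lists 3 to 8 genes were then higher and 1 to 7 lower. *Got2* passed with limma-voom (-0.73, adjusted p = 0.00417) and ranged from -0.69 to -0.40 without 1 library. *Ass1*, not called under any setting, ranged from -0.025, the value without control 72, to 0.43; the filter of 10 counts in every library removed it. With CPM + 1 the log2 ratio of *Ass1* to *Asl* was 0.51 (adjusted p = 0.0204), where the added 1 CPM is close to or above the level of *Ass1* itself. Without 1 library the difference was 0.86 to 1.25 for *Got1* to *Got2* and 1.03 to 1.37 for *Gpt2* to *Gpt*; the cause of the lost calls was not tested, beyond the smaller groups that remain. No setting moved the median of all genes by more than 0.06 on the log2 scale. No paired analysis was possible because the labels give no litter or other link between control and mutant libraries.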

Other observations

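*Atf4* itself, named after its values were seen, rose from 192 ± 17.8 CPM (SD, n = 4) to 453 ± 103 CPM (n = 5), with no overlap between the genotypes (log2 fold change 1.24, SE 0.17, edgeR adjusted p = 8.6e-04; 1.14 to 1.36 without each library in turn). The processed pseudogene *Got2-ps1* had 0 to 8 reads in any library, beside at least 2262 reads of *Got2*. Of the 11 list genes in the table that were too low to test, none exceeded 20 reads in any library. They include *Otc* and *Cps1*, the mitochondrial enzymes of the urea cycle, with at most 2 and 11 reads. Another, *Aspa*, named after its values were seen, held 0 to 2 reads in control and 3 to 20 reads in mutant libraries. That difference was not tested.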
